A study of Mus musculus with 2 samples.

Results

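The transcripts described here are those of the 7 mouse genes that encode inhibitors of cyclin-dependent kinases (CDKs), together with Trp53, which encodes p53, and its negative regulators Mdm2 and Mdm4. They were taken by gene symbol from a table of 17359 genes, and 10 of 10 were listed. Their values come from mouse neural stem cells, cultured cells that divide and can form neurons and glia, in 2 groups of 1 library each: cells transfected with an siRNA against Chd4 (siChd4, genotype given as Chd4 knockdown) and cells transfected with a scrambled siRNA (siSCR, genotype given as control). Both groups share the cell type and the transfection. Not given in the sources used here are the donor age and strain, whether the culture was pooled, the siRNA sequence or dose, and when RNA was taken. The series concerns Seh1, a nuclear pore protein, in neurogenesis, and this comparison asks what differs when Chd4, an ATPase of the NuRD chromatin remodelling complex, is targeted.

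CDK inhibitors hold cells out of the cell cycle. The Cip/Kip proteins p21 (Cdkn1a), p27 (Cdkn1b) and p57 (Cdkn1c) bind complexes of several cyclins with CDKs, while the INK4 proteins p16 (Cdkn2a), p15 (Cdkn2b), p18 (Cdkn2c) and p19 (Cdkn2d) bind CDK4 and CDK6 and keep them from D cyclins. The transcription factor p53 induces Cdkn1a and Mdm2. Mdm2 is the ubiquitin ligase that marks p53 for degradation, and Mdm4 is its partner, so much of p53 control acts on the protein and is not seen in RNA. Cdkn2a also encodes Arf, which blocks Mdm2, from its own first exon. In neural stem cells of the mouse brain, p21 is known for its part in maintaining quiescence, and in human cells NuRD is known to deacetylate p53.

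Cdkn1a is known as a gene that p53 induces, so letters of its promoter are given first. The best match to the p53 consensus in 3 other windows follows. Those windows were chosen for the roles of their genes and not for how well they match. RefSeq windows of 300 bases, from 250 before to 50 after a start site, on build GRCm38.p6, were found for 9 of the 10 genes, in 13 windows. The site is 20 bases long, made of a pair of 10-base repeats, and was searched on both strands with no spacer. Capitals mark the best match in each window, and each sequence is written on the strand of its gene.
Cdkn1a, upstream start, chr17:29090923-29090952, plus strand: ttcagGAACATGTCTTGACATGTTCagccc
Cdkn1b, chr6:134920177-134920206, plus strand: ctccgGGGCCAGCCAGAGCAGGTTTgttgg
Trp53, chr11:69580279-69580308, plus strand: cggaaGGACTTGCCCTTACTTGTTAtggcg
Mdm2, chr10:117710920-117710949, minus strand: gatagGAACTTGCCTAGCGACCATTgcggt

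The Cdkn1a match followed the consensus at 19 of its 20 positions and lay from 51 to 32 bases before the upstream start site. Such a match, with at most 1 position off, occurred in 29 of 32851 mouse promoter windows (0.0883%). The window of the downstream Cdkn1a start, 2790 bases further on, matched at 15 of 20 positions at best. The matches of Cdkn1b and Trp53 followed the consensus at 17 positions, as 6.29% of all windows do at least, and the match of Mdm2 at 15. Among windows not printed, 1 of Mdm4 matched at 17 positions and those of Cdkn2d and of the downstream Cdkn2c start at 16. The promoter of Mdm2 that p53 is known to act on lies inside the gene, outside this window. These matches describe letters only, and the number of mismatches to report was chosen after the Cdkn1a letters were seen.

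The windows of Cdkn2a separate its 2 products. Its start sites lie 12427 bases apart, and the upstream one, which is the start of Arf, holds the E2F motif TTTCCCGC, searched on both strands and found in 1.07% of windows. The motif is shown because E2F factors, which the INK4 proteins hold in check through Rb, are known to act on Arf. Several other motifs were searched in the same windows. TTTCCCGC was in no other window of the members, and another E2F motif, TTTGGCGC, was in none of them.
Cdkn2a, upstream start, chr4:89294706-89294723, minus strand: gaagcTTTCCCGCgcgac

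That window was 77.0% G and C and held 45 CpG dinucleotides, against 60.3% and 12 in the window of the downstream start. The table has 1 value per gene and library for Cdkn2a, so the transcripts of p16 and Arf cannot be told apart in it.

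The libraries held 20072009 estimated counts in siChd4 and 19816811 in siSCR. Chd4 itself, which checks the labels, was at 203 TPM in siChd4 against 249.5 TPM in siSCR, a fold of 0.815 with a 95% counting interval of 0.795 to 0.836. Its log2 ratio was -0.29, with 19.4% of genes lower still. Its transcript is long, 6450 bases by the ratio of its counts to FPKM, and the 1289 genes of 6427 bases or more had a median log2 ratio of -0.21, so Chd4 stood little below other long genes. Its level is thus a weak check of the labels. TPM is the transcript level per unit of length, scaled to the same total in each library. Intervals cover counting error only. Conditions were not tested, since each had 1 library, and no value has a check against the spread between cultures. In bulk RNA, fewer cells of a type and less RNA per cell cannot be told apart. Stem cell markers were abundant: the 6 listed summed to 13468 TPM in siChd4 against 11361.5 TPM in siSCR, with Fabp7, a fatty acid binding protein of radial glia, at 7004 and 6105 TPM and the filament gene Vim at 4835 and 3339.7 TPM. They did not share a direction: 4 of 6 were above 0 and 2 below, and the glutamate transporter gene Slc1a3 was at 878 and 1254 TPM (0.701-fold, 0.690 to 0.711).

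None of the members differed by 1.5-fold between the libraries. On TPM plus a pseudocount of 1, 0 of 10 were past that limit in either direction, where 11.2% of the 12882 genes that averaged at least 1 TPM were, 6.75% higher and 4.47% lower. All 10 members passed that filter. Their median log2 ratio, siChd4 over siSCR, was 0.09, with 7 above 0 and 3 below, while the median of all genes was -0.04 and the quartiles of all genes were -0.24 and 0.17. Counting intervals that excluded 1 were found for 6 members, 4 of them higher and 2 lower, where 59.2% of all genes had such an interval, 25.1% higher and 34.1% lower. In either direction the share of members was close to that of all genes, but more members were higher than lower, while more of all genes were lower. Such intervals narrow as counts rise, and many members exceed most genes in level, so all genes are not a like background for them.

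**Figure D1:**
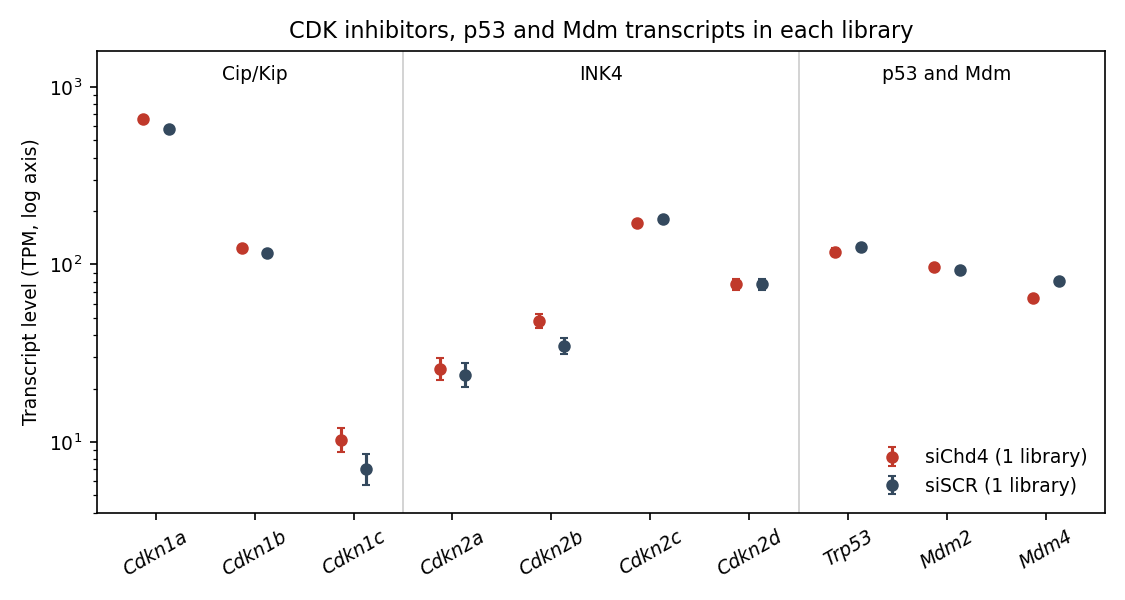
Transcript levels in TPM, on a log axis, of the 10 genes in the siChd4 library (left point of each pair) and the siSCR library (right point); bars are 95% exact Poisson intervals of the counts. Cdkn1a stands far above the other genes in both libraries, at 662 and 577 TPM, and Cdkn1c is lowest, at 10.3 and 7.04 TPM.

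Among the Cip/Kip genes, Cdkn1a was by far the most abundant. It was at 662 TPM in siChd4 against 577 TPM in siSCR, from 10296 and 8504 estimated counts, a fold of 1.15 (1.11 to 1.18). The intervals of its levels, 649 to 675 TPM in siChd4 and 565 to 589 TPM in siSCR, did not overlap. Its level exceeded that of 98.5% of genes in siChd4 and 98.2% in siSCR, so it belonged to the most abundant transcripts of these cells with either siRNA. Its log2 ratio was 0.20, and 77.5% of genes had a lower one.

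Cdkn1b, whose product p27 acts at the exit from the cell cycle, was at 124 TPM in siChd4 against 116 TPM in siSCR, a fold of 1.07 (1.01 to 1.14). The intervals of its levels, 119 to 129 TPM and 111 to 121 TPM, overlapped. Cdkn1c, an imprinted gene, was the scarcest inhibitor. It was at 10.3 TPM in siChd4 against 7.04 TPM in siSCR, from 161 and 103 estimated counts. Its fold of 1.47 (1.14 to 1.90) was the highest of the 10 and its log2 ratio was 0.49, higher than in 91.2% of genes. The intervals of its levels, 8.79 to 12.0 TPM in siChd4 and 5.745 to 8.54 TPM in siSCR, stood apart by a narrow gap, and the low counts leave a wide range for the fold.

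The INK4 genes did not share a direction. Cdkn2b, the p15 gene, known as a target of TGF-beta signalling, was at 48.1 TPM in siChd4 against 34.9 TPM in siSCR, a fold of 1.38 (1.21 to 1.58) and a log2 ratio of 0.45. Its level intervals, 44.1 to 52.3 TPM in siChd4 and 31.4 to 38.6 TPM in siSCR, did not overlap, and 90.1% of genes had a lower ratio. Cdkn2a was at 25.7 TPM in siChd4 against 23.8 TPM in siSCR, a fold of 1.08 (0.872 to 1.34). Its interval includes 1, and it also overlaps that of its neighbour Cdkn2b, so the folds of these adjacent genes on chromosome 4 are not separated by counting error. The genes on either side of the pair, chosen after their values were seen, were not higher in siChd4: Mtap, a gene of methionine salvage, was at 88.8 TPM in siChd4 against 103 TPM in siSCR, and Dmrta1 at 1.14 and 1.31 TPM. An annotated long noncoding RNA gene, Gm12610, covers the 4744 bases of Cdkn2b. Use of strand in counting is not given in the sources used here, so reads of it and of Cdkn2b cannot be told apart.

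Cdkn2c, which encodes p18, was the most abundant INK4 transcript. It was at 170.1 TPM in siChd4 against 181 TPM in siSCR, a fold of 0.942 (0.891 to 0.995). The upper end of the interval lies just below 1, and the intervals of its levels, 164 to 177 TPM in siChd4 and 174 to 188 TPM in siSCR, overlapped. Cdkn2d, which encodes p19, was at 77.5 TPM in siChd4 against 77.4 TPM in siSCR, a fold of 1.001 (0.904 to 1.11). It was the member with the smallest difference, from 787 and 746 estimated counts.

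Trp53 transcript levels were close in the libraries. The gene was at 118 TPM in siChd4 against 125 TPM in siSCR, a fold of 0.945 (0.883 to 1.01), and its estimated counts were 1711 and 1718. Mdm2 was at 97.1 TPM in siChd4 against 92.5 TPM in siSCR, a fold of 1.05 (0.992 to 1.11). Both intervals include 1. Mdm4 was the member furthest below siSCR. It was at 65.1 TPM in siChd4 against 80.8 TPM in siSCR, a fold of 0.806 (0.771 to 0.841) and a log2 ratio of -0.31, with 18.1% of genes lower still. Its level intervals, 63.1 to 67.2 TPM in siChd4 and 78.5 to 83.2 TPM in siSCR, did not overlap. Mdm4 has the longest transcript of the members, 7114 bases by the ratio of its counts to FPKM, so the same median of long genes applies to it. With the trend of ratio on length subtracted, the log2 ratio of Mdm4 was -0.16. A pseudogene of Trp53 and one of Mdm4 are annotated and had 0 rows in the table. How reads shared with them, or with the noncoding gene Gm41953 that overlaps Mdm4 by 3855 bases, were assigned is not given, so these values carry that uncertainty.

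**Figure D2:**
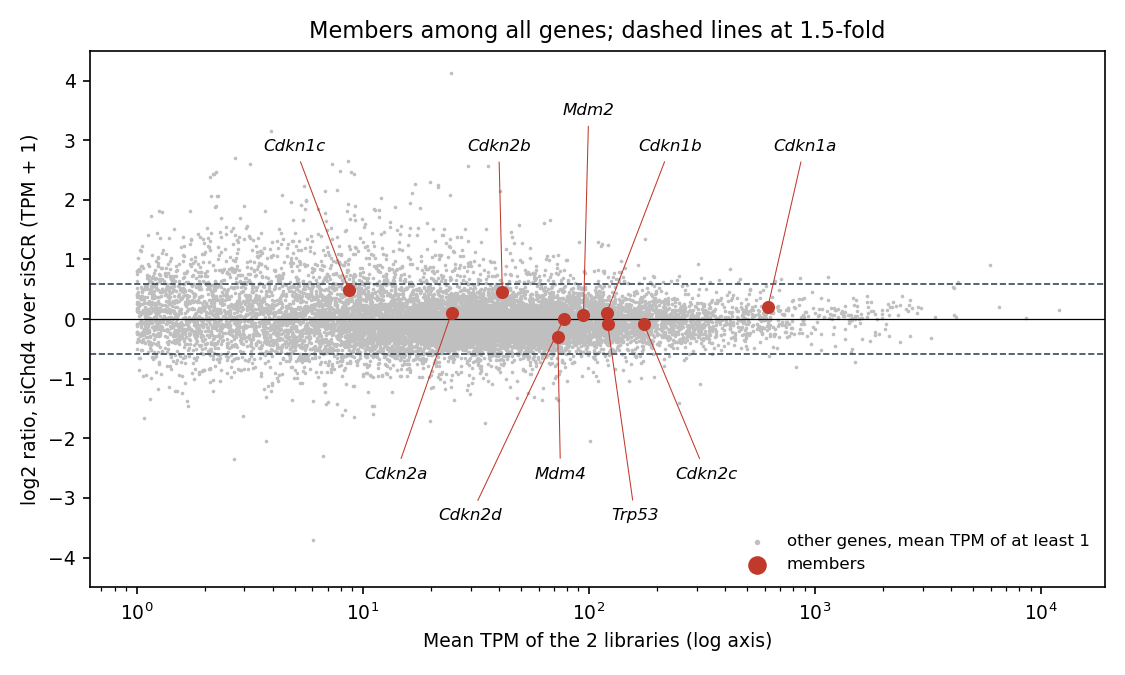
Ratio of siChd4 to siSCR (log2 of TPM + 1) against the mean TPM of the libraries (log axis), for the 12882 genes averaging at least 1 TPM (grey) and the 10 members (red). The members lie between the dashed 1.5-fold lines, from -0.31 for Mdm4 to 0.49 for Cdkn1c.

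The order of the levels was nearly the same in the libraries. From the highest, it ran Cdkn1a, Cdkn2c, Cdkn1b, Trp53, Mdm2, Cdkn2d, Mdm4, Cdkn2b, Cdkn2a and Cdkn1c in siChd4. In siSCR the order of Cdkn1b and Trp53 and that of Cdkn2d and Mdm4 were exchanged. The intervals of Cdkn1b and Trp53 overlapped in each library, and those of Mdm4 and Cdkn2d overlapped in siSCR but not in siChd4. All other neighbours in the order were separated by their counting intervals. Length matters to this order: by estimated counts, Mdm4 took place 2 in both libraries, while per length it took place 7 in siChd4 and place 6 in siSCR.

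Cdkn1a made up most of the inhibitor transcripts. The 7 inhibitors summed to 1118 TPM in siChd4 against 1016 TPM in siSCR, and Cdkn1a was 59.2% of that sum in siChd4 (58.1 to 60.4, from the interval of its counts) and 56.8% in siSCR (55.6 to 58.0). These ranges hold the sum fixed, though Cdkn1a is most of it, so they are not counting intervals of the share. Cdkn2c followed with 15.2% in siChd4 and 17.8% in siSCR, and Cdkn1b with 11.1% and 11.4%. The remaining 4 genes held small shares. Cdkn2d had 6.93% in siChd4 and 7.62% in siSCR, Cdkn2b 4.30% and 3.43%, Cdkn2a 2.300% and 2.34%, and Cdkn1c 0.923% and 0.693%.

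Put as ratios, the level of Cdkn1a was 5.33 times that of Cdkn1b in siChd4 and 4.99 times in siSCR, and 64.1 and 81.9 times that of Cdkn1c. The Cip/Kip genes summed to 796 TPM in siChd4 against 699.5 TPM in siSCR, while the INK4 genes summed to 321 and 317 TPM. The difference of 101 TPM in the inhibitor sum was thus mostly the 85.0 TPM of Cdkn1a, and the other 6 inhibitors together were at 456 TPM in siChd4 against 439 TPM in siSCR, a fold of 1.04.

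**Figure D3:**
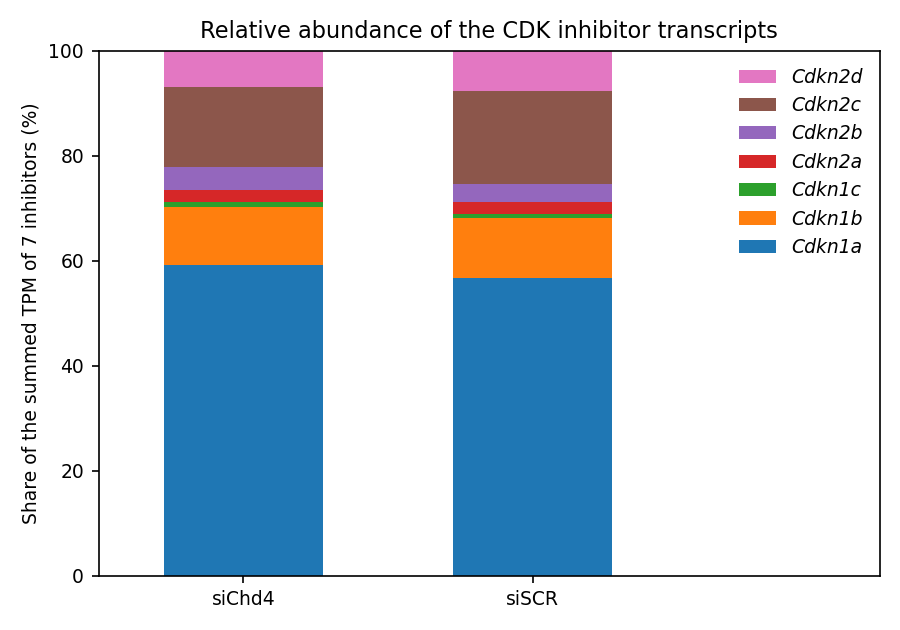
Share of each inhibitor in the summed TPM of the 7 inhibitors, as stacked bars for the siChd4 library (left) and the siSCR library (right). Cdkn1a fills 59.2% and 56.8% of the bars, and the order of the shares of Cdkn1a, Cdkn2c and Cdkn1b is the same in both.

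Within the p53 group, Mdm2 stood at 0.824 of the Trp53 level in siChd4 and 0.742 in siSCR, and Mdm4 at 0.553 and 0.649. As ratios to Trp53, these opposite differences nearly offset each other. The sum of Mdm2 and Mdm4 was 1.38 times the Trp53 level in siChd4 and 1.39 times in siSCR. The levels themselves did not offset: siChd4 minus siSCR was 4.58 TPM for Mdm2 and -15.72 TPM for Mdm4. For Trp53, the divisor, that difference was -6.84 TPM. The fold intervals of Mdm2 and Trp53 include 1, and no counting interval was computed for these ratios. The ratio of Mdm2 to Mdm4 was 1.49 in siChd4 and 1.14 in siSCR. The ratio of Cdkn1a to Trp53 was 5.62 in siChd4 and 4.63 in siSCR.

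Other genes that p53 induces showed no common direction. Of 38 listed, 37 averaged at least 1 TPM. Of these, 3 were past 1.5-fold higher in siChd4 and 0 lower, against 6.75% and 4.47% of all genes. Among the 37, 21 were below 0 and 16 above, where 55.3% of all genes were below 0. Their median log2 ratio was -0.01 beside -0.04 for all genes, and it was 0.03 with median-of-ratios scaling, which moves all genes up by about 0.04. The 3 were the tetraspanin gene Cd82, at 5.10 TPM in siChd4 against 1.91 TPM in siSCR, the DNA repair gene Mgmt, at 33.4 and 17.98 TPM, and the membrane protein gene Perp, at 12.8 and 6.64 TPM. The 2 most abundant members were cyclin genes: Ccnd2 was at 833 TPM in siChd4 against 1009 TPM in siSCR, and Ccng1 at 556 and 612 TPM.

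Of 21 genes that regulate p53, 1 was past 1.5-fold higher and 2 lower, against 6.75% and 4.47% of all genes. The median was -0.18, and 16 were below 0, where 55.3% of all genes were. With the length trend subtracted, the median was -0.09. The stress protein gene Nupr1 was at 5.41 TPM in siChd4 against 1.5 TPM in siSCR, from 26.0 and 6.83 estimated counts (3.61-fold, 1.49 to 9.60). Lower were Prkdc, a kinase of DNA repair, at 8.87 and 14.4 TPM, and Crebbp, an acetyltransferase, at 12.5 and 19.6 TPM. The fold of Crebbp was 0.639 on TPM but 0.745 on counts scaled to the library total, which does not reach 1.5-fold. The 2 lower calls became 0 with the length trend subtracted and 1 with median-of-ratios scaling. The most abundant were Rpl5, a ribosomal protein gene whose product can bind Mdm2, at 1274 TPM in siChd4 against 1257 TPM in siSCR, and the nucleolar gene Npm1, at 972 and 1159 TPM. The paralogs of p53 were near 0: Trp63 and Trp73 summed to 0.69 TPM in siChd4 against 0.32 TPM in siSCR.

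The cyclins and kinases that the inhibitors bind were mostly a little lower in siChd4. Of 11 genes, 0 were past 1.5-fold, where 11.2% of all genes were in either direction. The median log2 ratio was -0.19, beside -0.04 for all genes, and it was -0.14 with the length trend subtracted. Below 0 were 9 of the 11, and 55.3% of all genes. Ccnd1, the most abundant, was at 1629 TPM in siChd4 against 1609 TPM in siSCR. Cdk4 and Cdk6, which the INK4 proteins bind, summed to 753 TPM in siChd4 against 796 TPM in siSCR, so the INK4 sum stood at 0.427 and 0.398 of them. Cdk1 and Cdk2 summed to 165 TPM in siChd4 against 207 TPM in siSCR, and the Cip/Kip sum was 4.82 and 3.38 times theirs. That divisor leaves out Cdk4 and Cdk6, the larger sum, though Cip/Kip proteins bind complexes of several cyclins with CDKs. It is therefore no measure of an excess over all the kinases they bind. These are ratios of transcripts and say nothing of how much protein was bound.

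Downstream, the Rb family and the E2F factors with their DP partners had a median of -0.23, with 11 of 13 below 0 and 1 past 1.5-fold lower, where 55.3% and 4.47% of all genes were. The 1 was Tfdp2, at 33.5 TPM in siChd4 against 51.9 TPM in siSCR, and it was not past the limit with median-of-ratios scaling or the length trend subtracted. With that trend subtracted, the median of these genes was -0.16. The most abundant of them, Tfdp1, was at 295 and 313 TPM, and E2f6, a repressor, at 55.04 and 77.5 TPM. Of 17 proliferation genes, 17 were below 0, against 55.3% of all genes, with a median of -0.25, though the counting intervals of the replication genes Mcm5 (0.937 to 1.02) and Mcm6 (0.945 to 1.02) include 1. Past 1.5-fold lower were 2, against 4.47% of all genes, the mitotic cyclins Ccnb1 (208 TPM in siChd4 against 328 TPM in siSCR) and Ccnb2 (81.6 and 127 TPM). Pcna, the replication clamp, was at 811 and 912 TPM, and Rrm2, which makes deoxynucleotides, at 609 and 725 TPM.

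Genes that act on the inhibitors were not past the limit on TPM + 1. Of 9 measured regulators of p27 and p57, 0 passed 1.5-fold, where 11.2% of all genes did in either direction. Their median was -0.23, beside -0.04 for all genes, and it was -0.14 with the length trend subtracted. Cks1b, a cofactor in p27 degradation, was at 161 TPM in siChd4 against 212 TPM in siSCR, while Cops5 was at 161 and 166 TPM. Of 21 regulators of Cdkn2a and Cdkn2b, 0 passed 1.5-fold, against the same 11.2% of all genes, with a median of -0.09. With a pseudocount of 0.1, 1 gene of each of these lists was past the limit, lower, and with the length trend subtracted 1 regulator of p27 and p57 was past it, higher. Ezh2, the Polycomb methyltransferase that silences Cdkn2a in many cells, was at 138 TPM in siChd4 against 160.1 TPM in siSCR, and Myc at 135 and 142 TPM. Of 14 senescence and secretory genes, 9 were measured above the filter, 1 of them past 1.5-fold higher, against 6.75% of all genes: Ccn2, a matrix protein gene, at 18.6 and 5.0 TPM. Igfbp3, an insulin-like growth factor binding protein gene, was at 1502 and 1497 TPM, and Hmgb1, a chromatin protein gene, at 496 and 651 TPM.

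**Figure D4:**
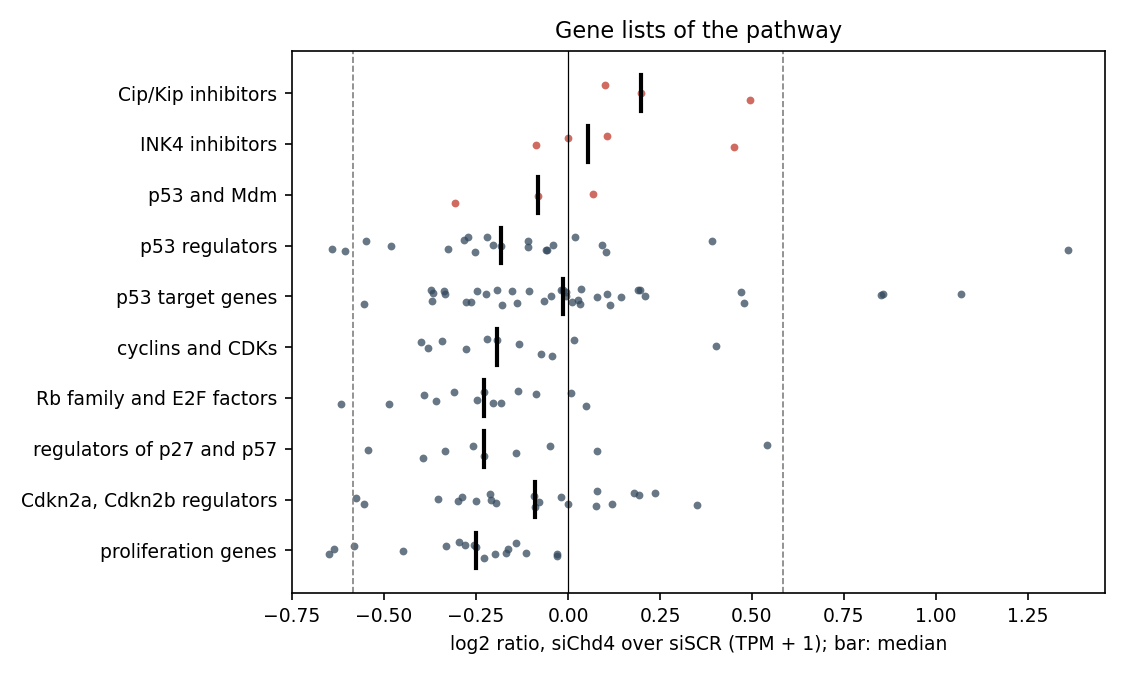
Ratio of siChd4 to siSCR (log2 of TPM + 1) for each gene averaging at least 1 TPM, by gene list; black bars are medians and dashed lines mark 1.5-fold. The Cip/Kip median is 0.20, the INK4 median 0.05 and the p53 target median -0.01, and all 17 proliferation genes lie below 0.

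Markers of neural lineages and of other cell types, in which CDK inhibitors can be expressed, also differed between the libraries. Of 6 neuron markers, 3 were past 1.5-fold higher in siChd4 and 0 lower, beside 6.75% higher and 4.47% lower among all genes, which is the background for each marker list. Their summed level was 600.04 TPM in siChd4 against 455 TPM in siSCR, mostly from Map2, at 516 and 427 TPM (1.21-fold). Tubb3, the neuronal tubulin gene, was at 40.02 and 8.70 TPM. Of 6 listed oligodendrocyte markers, 5 passed the filter, and these 5 were past 1.5-fold higher. The list summed to 49.9 TPM in siChd4 against 15.7 TPM in siSCR, and Sox10 was at 7.71 and 1.05 TPM. Mog, below the filter, was at 0.07 and 0.09 TPM. Differentiated cells and their precursors were not told apart. Of 5 astrocyte markers, 0 were past 1.5-fold higher and 1 lower, the gap junction gene Gja1, at 40.8 and 105 TPM. Aldh1l1, the most abundant of them, was at 421 and 309 TPM and made up most of the list sum, 496 TPM in siChd4 against 451 TPM in siSCR. The astrocyte markers did not share a direction: 3 of 5 were below 0 and 2 above, with a median log2 ratio of -0.19. Fibroblast and smooth muscle markers summed to 18.6 TPM in siChd4 against 10.4 TPM in siSCR. All 3 measured members had log2 ratios above 0, with 2 of them past 1.5-fold higher, and Dcn was listed at 0 in siSCR. Microglia markers summed to 0.53 and 0.77 TPM, with C1qa listed at 0 in siChd4 and Aif1 in siSCR, and endothelium markers to 2.09 and 1.20 TPM. The part of such cells in the differences of Cdkn1a, Cdkn1c, Cdkn2b and Mdm4 was not tested.

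**Figure D5:**
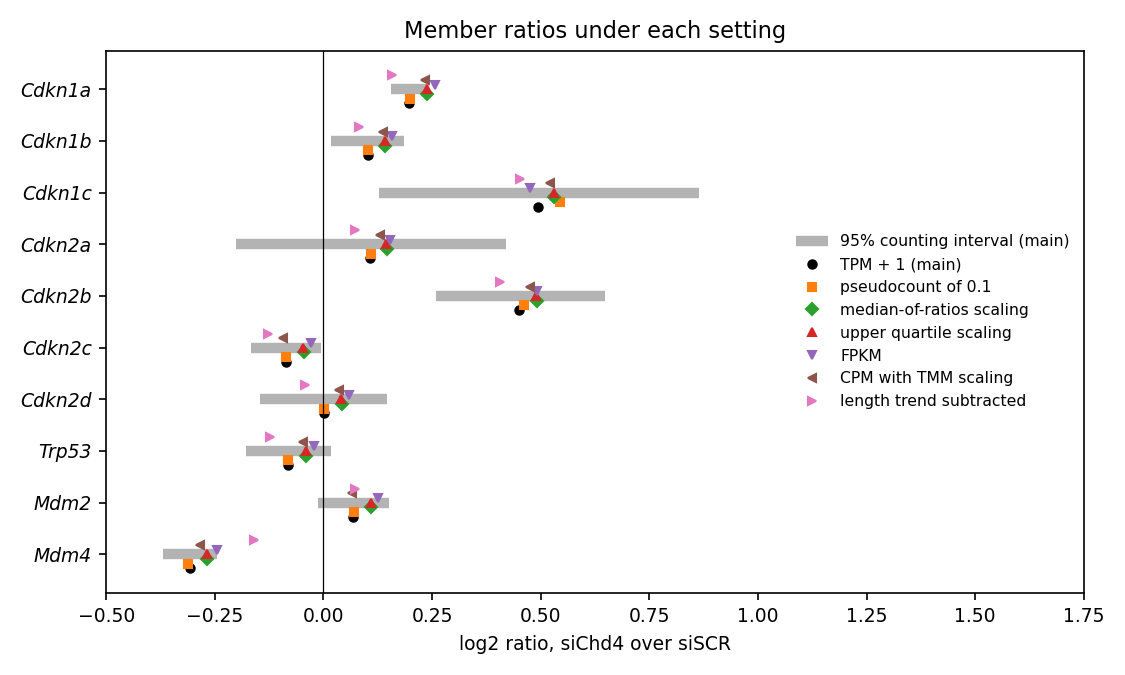
The log2 ratio of siChd4 over siSCR for each member under 7 settings (symbols) with the 95% counting interval of the main value (grey bar). Apart from Cdkn2d, which lies at 0.00, each member stays on its side of 0 under these settings, and Mdm4 ranges from -0.31 to -0.16.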

How the data were processed

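Total RNA of 2 libraries was sequenced, grouped by title. In 1 table the authors deposited TPM, FPKM and read counts per gene and library, per the file headers. The deposited counts are estimated counts (17.8% whole numbers in siChd4, 16.0% in siSCR) and were rounded for intervals and for TMM factors. Per the submitters' processing notes, reads were placed on mm39. Not given in the sources used here: aligner, counter and use of strand. Promoter windows come from RefSeq on GRCm38.p6, and no coordinate was converted.

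The log2 ratio was siChd4 over siSCR on TPM + 1, over genes averaging at least 1 TPM, which understates folds of low genes. The limit was 1.5-fold. Folds of TPM have exact Clopper-Pearson 95% intervals, and levels exact Poisson intervals, for counting error only. PCR duplicates cannot be told from separate molecules. A floor of 3 counts is 0.149 CPM in siChd4 and 0.151 CPM in siSCR. Functions were tested on simulated data. Python 3.11.15, scipy 1.17.1, statsmodels 0.14.6 and edgeR 4.0.16 (TMM factors only) were used.

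The members and 19 gene lists were chosen with earlier results of these data known. The text names the 10 members and Chd4. From each list it names up to 3 genes per direction past 1.5-fold and the 2 most abundant, with exceptions marked. Slc1a3, Mcm5, Mcm6 and Mog were added after their values were seen. Of the marker lists only some are given, and Cdk1, Cdk2, Cdk4 and Cdk6 appear as sums. Alternatives were a pseudocount of 0.1, other scalings, FPKM, CPM with TMM, other filters, a 2-fold limit, and subtraction of a lowess trend (span 0.3) with transcript length.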

Additional observations from a re-analysis of the deposited data

How the results depend on the processing

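Of 60 member log2 ratios under other settings, 57 stayed within the counting interval of the main value. The others were Cdkn1a at 0.26 and Mdm4 at -0.24 on FPKM, and Mdm4 at -0.16 with the length trend subtracted. Cdkn2d, at 0.00, was at -0.04 with that trend subtracted. Under a pseudocount of 0.1, median-of-ratios scaling and TMM scaling, 0 of 10 members were past the limit. A 2-fold limit and no filter also gave 0, but by construction. None was past 1.5-fold, and all 10 members already passed the filter. Without division by length, Cdkn1a was 60.9% of the inhibitor counts in siChd4 and 58.2% in siSCR; TPM divides by length by construction. At a 2-fold limit, 1 p53 target was higher, and 2.26% of all genes were higher and 0.629% lower, a stricter limit by construction. Of the list counts and medians, the lower calls among the Rb and E2F genes, 1, and the p53 regulators, 2, became 0 with the length trend subtracted and 0 and 1 with median-of-ratios scaling, and the 1 higher p53 regulator was below a filter of 5 TPM. With a pseudocount of 0.1, which widens ratios of low genes by construction, the p27 and p57 regulators and the Cdkn2a and Cdkn2b regulators each gained 1 lower call, and 2 senescence genes were higher. Depth limits the fold of Cdkn1c most. Leaving out a replicate was not run, as this would empty a group. No paired analysis was possible because siChd4 and siSCR had 1 library each.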
